A study of Mus musculus with 6 samples.

Results

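The genes described here encode structural proteins of the extracellular matrix: the interstitial collagens, the collagens, laminins and other components of basement membranes, and the adhesive glycoproteins and small proteoglycans that sit on and between them. They were chosen from a list of 42 gene symbols, and a gene was taken as measured where the array's annotation gave a probe with that symbol or an older alias. By this rule 40 of the 42 genes had a named probe, of 19038 named genes on the array, and they were read by 92 of 45281 probes. Measured were 10 of 11 listed interstitial collagens, 19 of 19 listed genes of basement membranes and 11 of 12 listed glycoproteins and proteoglycans. Col6a3 and Spp1 had no named probe and are not analysed here. A gene with several probes was read at the probe with the highest mean over the 6 arrays.

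Intestinal RNA from irradiated mice was hybridised to Illumina MouseWG-6 v2 arrays, on which each gene is read by short oligonucleotide probes. The free Ub group comprised 3 samples from mice given free ubiquitin, the small protein that cells otherwise attach to other proteins, and the PBS group 3 samples from mice given the saline vehicle. All 6 samples came from male mice, C57 in the labels and C57BL/6J in the study's text, that received 7 Gy of total body radiation, and there was no unirradiated sample. According to the sample labels the mice were 4 weeks old, were injected after radiation and were sampled 3.5 days after it. The study's methods give older mice and an injection before radiation, and its legend for the arrays gives an earlier sampling time. A supplementary legend, for genes checked by RT-PCR, places the injection after radiation, as the labels do. The comparison below uses none of these. The labels do not say that the arrays of a group came from separate mice, so that every p-value measures the spread between these samples only.

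The interstitial matrix of the gut wall is built by fibroblasts and muscle cells, which secrete fibril-forming collagens together with beaded filaments of collagen VI. Basement membranes are thin sheets under the epithelium and around vessels, muscle and nerve, in which a laminin network and a collagen IV network are joined by nidogen and the heparan sulfate proteoglycan perlecan. Crypt epithelium rests on such a sheet, and matrix deposition in the submucosa is a known late effect of radiation on the intestine.

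Values are log2 signals as normalized by the authors. Many probes of every array lay at a floor near 0, and a value within 0.01 of the lowest value of its array is called at the floor here. The comparison of free Ub with PBS was fitted in limma over all 45281 probes, with Benjamini-Hochberg adjustment over all of them, and an adjusted p under 0.05 was required for a call. Genes past an unadjusted p under 0.05 were counted as well. A difference is always free Ub minus PBS on the log2 scale, so a negative one means a lower signal with free Ub.

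The authors' normalization brings the distributions of the arrays together, and median, upper quartile and highest value were alike on the 6 arrays (2.55, 5.32 and 14.5). Between 32.2% and 33.7% of the probes of an array lay at the floor, and pairs of arrays correlated at 0.926 to 0.945 over all probes. Of 8 enterocyte markers 7 were above the floor on every array, among them Vil1, the actin-bundling villin of the brush border, at 12.7 ± 0.18 with free Ub and 12.6 ± 0.06 with PBS (SD, n = 3 each), whereas Fabp2, a fatty acid carrier of enterocytes, was at the floor on 3 arrays. Digestive enzymes of the exocrine pancreas were also measured. Cpa1, a pancreatic carboxypeptidase, had 12.9, 11.4 and 5.82 in the free Ub samples and 11.2, 9.06 and 13.1 in the PBS samples. Amy2a5, a pancreatic amylase, varied less, with 14.03, 14.15 and 12.3 in the free Ub samples and 14.5, 14.2 and 14.07 in the PBS samples. In PBS 1 it was at the highest value of the array, and the part of this ceiling in its smaller spread was not tested.

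Most matrix genes had a lower mean signal with free Ub, by small amounts. Of the 40 genes, 32 (80%) were lower and 8 (20%) higher, against 49.7% lower and 44.3% higher among all named genes, of which some were at the floor throughout. The median difference over the 40 genes was -0.29, against -0.00 over all named genes. For genes above the floor on every array these medians were -0.28 and -0.025. No gene of the list passed an adjusted p under 0.05 in limma (0 of 40, where 0.0578% of all named genes did), nor in the other tests run on the 6 samples. At an unadjusted p under 0.05, 5 were lower (12.5%, background 3.4%) and 0 higher (background 2.33%). The 5 were Hspg2, Col6a6, Lamc3, Col2a1 and Thbs4. Of them, Col6a6, Col2a1 and Thbs4 also differed by more than 2-fold (7.5% of the list, background 1.3%). In this bulk tissue, fewer cells of a type and less RNA per cell cannot be told apart.

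The groups did not overlap for 7 genes, all lower with free Ub (17.5%, background 5.02%), and for 0 genes in the other direction (background 3.73%). The 7 were the 5 above together with Lamb2 and Vwf. Over all 92 probes of these genes, the dimmer ones included, 64.1% were lower and 25% higher (background 43.8% each way), and the groups did not overlap for 9 probes that were lower (9.78%, background 3.96%) and for 2 that were higher (2.17%, background 3.97%). The 2 were the other probes of Col14a1 and Col4a5. The share that was lower did not come from dim probes alone. Among the 26 genes with a mean above 4, 22 (84.6%) were lower, against 53.4% of named genes of that brightness, and among the 14 with a mean above 6, 13 (92.9%) were lower, against 52.9%. Calls behaved differently: above a mean of 4 only Hspg2 had an unadjusted p under 0.05 (3.85%, background 3.94%), and 3 genes had groups that did not overlap (11.5%, background 6.17%).

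**Figure D1:**
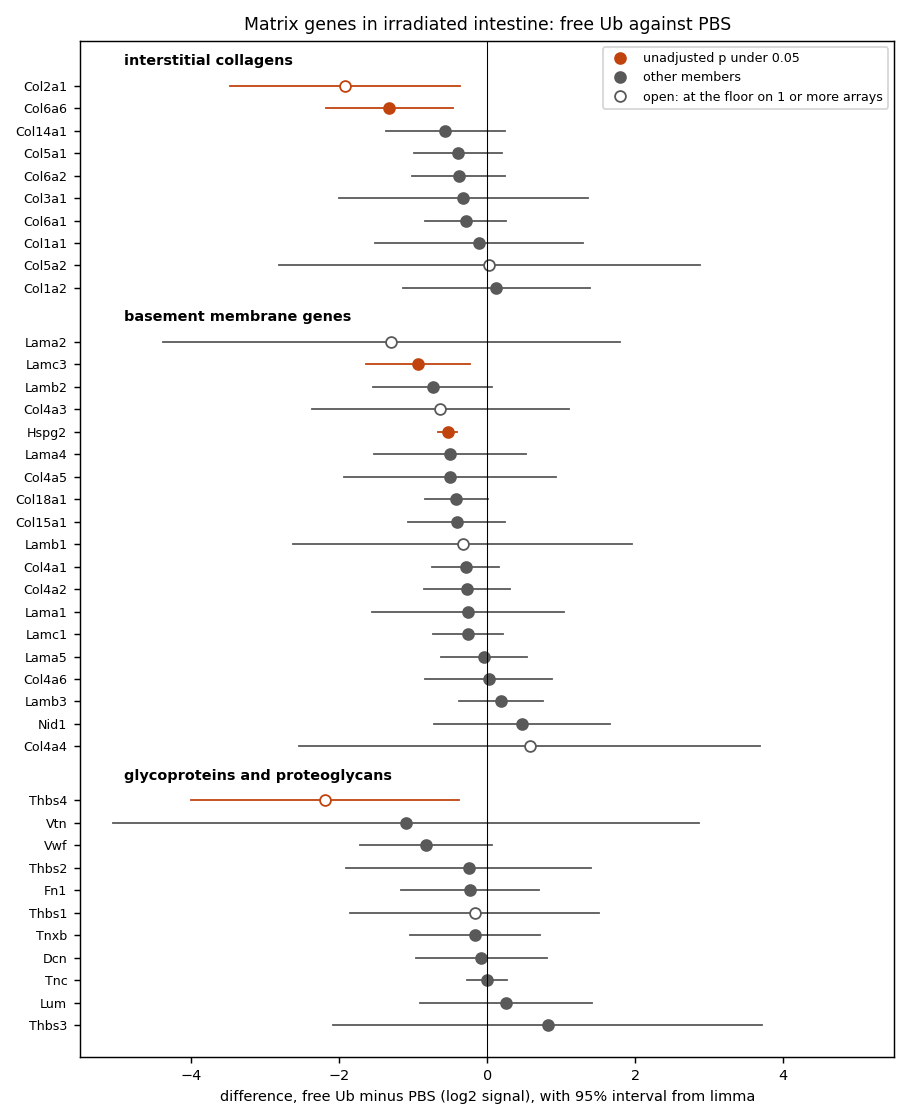
Difference in log2 signal, free Ub minus PBS, on the horizontal axis for the 40 matrix genes, grouped by role and ordered within each role, with the 95% interval from limma as a bar. Most points lie left of 0, and 5 genes with an unadjusted p under 0.05 are coloured, of which Hspg2 has the narrowest interval (-0.66 to -0.40).

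The promoters of the genes whose groups did not overlap are shown because these are the members the comparison turns on. RefSeq windows on GRCm38.p6 were at hand for 26 of the 40 genes, and for 4 of these 7. Lamc3, Col2a1 and Vwf had none. Each line gives the 250 bases before the transcription start, read 5′ to 3′ on the gene's strand, and capitals mark the GC box, GGGCGG or CCGCCC on the other strand, the letters that Sp-family factors bind.
Hspg2, chr4:137468553-137468802, + strand: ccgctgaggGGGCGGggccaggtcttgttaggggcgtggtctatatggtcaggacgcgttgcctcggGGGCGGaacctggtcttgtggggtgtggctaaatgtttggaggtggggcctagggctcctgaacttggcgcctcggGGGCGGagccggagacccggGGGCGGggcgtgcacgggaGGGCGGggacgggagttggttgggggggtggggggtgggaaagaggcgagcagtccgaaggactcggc
Col6a6, chr9:105828086-105828335, - strand: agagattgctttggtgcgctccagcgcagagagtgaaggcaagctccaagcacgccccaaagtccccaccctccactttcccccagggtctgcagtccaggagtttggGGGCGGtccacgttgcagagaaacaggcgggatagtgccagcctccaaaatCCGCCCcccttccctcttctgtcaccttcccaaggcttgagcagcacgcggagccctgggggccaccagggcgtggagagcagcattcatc
Thbs4, chr13:92794819-92795068, - strand: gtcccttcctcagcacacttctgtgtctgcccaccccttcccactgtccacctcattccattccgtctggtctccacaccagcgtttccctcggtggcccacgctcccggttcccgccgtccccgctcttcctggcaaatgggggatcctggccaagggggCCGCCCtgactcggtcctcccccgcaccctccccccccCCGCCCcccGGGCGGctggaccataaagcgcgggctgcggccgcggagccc
Lamb2, chr9:108479612-108479861, + strand: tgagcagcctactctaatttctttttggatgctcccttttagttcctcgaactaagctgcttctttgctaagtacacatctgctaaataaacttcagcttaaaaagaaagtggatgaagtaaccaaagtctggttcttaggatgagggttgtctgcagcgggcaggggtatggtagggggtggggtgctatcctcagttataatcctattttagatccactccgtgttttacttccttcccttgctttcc
The windows of Hspg2, Col6a6 and Thbs4 hold 5, 2 and 3 GC boxes and that of Lamb2 holds 0. Their GC contents are 70%, 62.4%, 70.8% and 43.6%, where the median over all windows is 52.4%. None of the 4 holds a CCAAT box (CCAAT or ATTGG) or a TATA box (TATAAA or TTTATA). Over the 30 windows of the 26 genes, GC content ran from 35.2% (Col3a1) to 76.4% (Col5a1). Windows of genes with a higher mean with free Ub ran from 47.6% (Col4a6) to 64.4% (Nid1). Of the 30 windows, 17 held a GC box, 9 a CCAAT box and 5 a TATA box, where 32.7%, 33.8% and 12.4% of all 32851 windows of this length held them. These are matches of letters and were not tested as binding sites. Some genes have more than 1 window, and those of Tnc overlap and share a GC box and a TATA box. The counts are therefore of windows, not of genes.

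The interstitial collagens had a median difference of -0.35, with 8 of 10 lower (background 49.7%). Of the 10, 2 were lower at an unadjusted p under 0.05 (background 3.4%), both dim. Col6a6, a collagen VI chain, had log2 signals of 1.60, 1.77 and 0.83 in the free Ub samples, against 2.53, 2.54 and 3.09 in the PBS samples. All 3 free Ub samples lay under all 3 PBS samples, and every value was in the lower part of the array's range. The difference was -1.32 ± 0.32 (SE), 2.50-fold lower with free Ub (limma, unadjusted p = 0.0115, adjusted p = 0.671). Col2a1, the fibril-forming collagen of cartilage, had 1.59 in free Ub 1 and lay at the floor in free Ub 2 and free Ub 3, against 3.09, 1.98 and 2.30 in the PBS samples. Its groups did not overlap either, but 2 of the 3 free Ub values were at the floor, so the size of the difference of -1.92 ± 0.59 (SE) depends on where the floor lies (limma, unadjusted p = 0.0251, adjusted p = 0.829).

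The collagens with the brightest probes of this class differed less and their groups overlapped. Col6a1, the first chain of the collagen VI filament, had 8.70, 8.69 and 8.75 in the free Ub samples and 9.02, 8.62 and 9.37 in the PBS samples. The free Ub values lay close together, between PBS 2 and the other PBS samples, and the difference was -0.29 (95% interval -0.83 to 0.26). Col5a1, a collagen V chain that sets the diameter of collagen fibrils, had 6.42, 6.41 and 6.84 with free Ub and 7.17, 6.57 and 7.10 with PBS. Here only free Ub 3 reached above a PBS sample, PBS 2, and the difference was -0.39 (-0.99 to 0.21). Col6a2, which assembles with Col6a1, had 6.45, 6.69 and 6.41 with free Ub and 7.07, 6.43 and 7.20 with PBS, a difference of -0.38 (-1.01 to 0.25). In all 3 genes PBS 1 and PBS 3 lay above every free Ub sample and PBS 2 did not.

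The chains of collagen I, the main fibril of the gut wall, showed no common direction. Col1a1 differed by -0.12 (-1.52 to 1.29) and Col1a2 by 0.12 (-1.14 to 1.39), intervals that include 2-fold changes either way. Col1a2 had 4.68, 4.51 and 4.87 with free Ub and 5.55, 3.96 and 4.18 with PBS, so that PBS 1 alone lay above the free Ub samples and the other PBS samples below them. Without PBS 1 its difference was 0.62 (limma, unadjusted p = 0.0190, adjusted p = 0.689). Col5a2, the second collagen V chain, was at the floor in 1 free Ub and 1 PBS sample and differed by 0.03 (-2.81 to 2.87).

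Collagen III and collagen XIV were read by probes that differed in direction. Col3a1, the collagen that forms fine fibrils with collagen I, had 5.16, 4.51 and 5.59 with free Ub and 6.59, 4.64 and 4.997 with PBS at its brightest probe, a difference of -0.32, and 3.72, 3.22 and 2.81 against 2.21, 2.03 and 3.37 at a dimmer probe, a difference of 0.71. Col14a1, which binds to the surface of collagen fibrils, had 5.29, 4.46 and 5.14 with free Ub and 5.76, 5.14 and 5.70 with PBS at its brightest probe, a difference of -0.57 (-1.37 to 0.24). Its other probe had 4.60, 4.65 and 4.96 with free Ub, all above the 2.88, 4.42 and 4.33 with PBS, a difference of 0.86 (-0.41 to 2.13). The direction for these genes therefore depends on the probe read.

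The basement membrane genes had a median difference of -0.33, with 15 of 19 lower (background 49.7%). Of the 19, 2 were lower at an unadjusted p under 0.05 (background 3.4%). Hspg2 encodes perlecan, the heparan sulfate proteoglycan that ties the laminin and collagen IV networks together and holds growth factors of the FGF family. It had log2 signals of 7.72, 7.86 and 7.72 in the free Ub samples, against 8.29, 8.30 and 8.31 in the PBS samples. The 3 PBS values lay close together and above all 3 free Ub values. The difference was -0.53 ± 0.05 (SE), 1.44-fold lower with free Ub (limma, unadjusted p = 0.000195, adjusted p = 0.122, exact permutation p = 0.1, the smallest that 3 against 3 allows). The SD was 0.08 between free Ub samples and 0.01 between PBS samples, and the small p rests on this spread.

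A second Hspg2 probe gave the same direction. It had 7.11, 7.32 and 7.43 with free Ub, again all under the 7.91, 8.20 and 7.79 with PBS, a difference of -0.68 (95% interval -1.06 to -0.30; limma, unadjusted p = 0.00664, adjusted p = 0.564). Hspg2 kept an unadjusted p under 0.05 and the same direction in all 18 alternatives run. These reuse the same samples, and some hardly change the values: with quantile normalization and with median centring the Hspg2 difference stayed at -0.53. Its adjusted p lay between 0.0482 and 0.894 over them, and was under 0.05 only without free Ub 2.

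**Figure D2:**
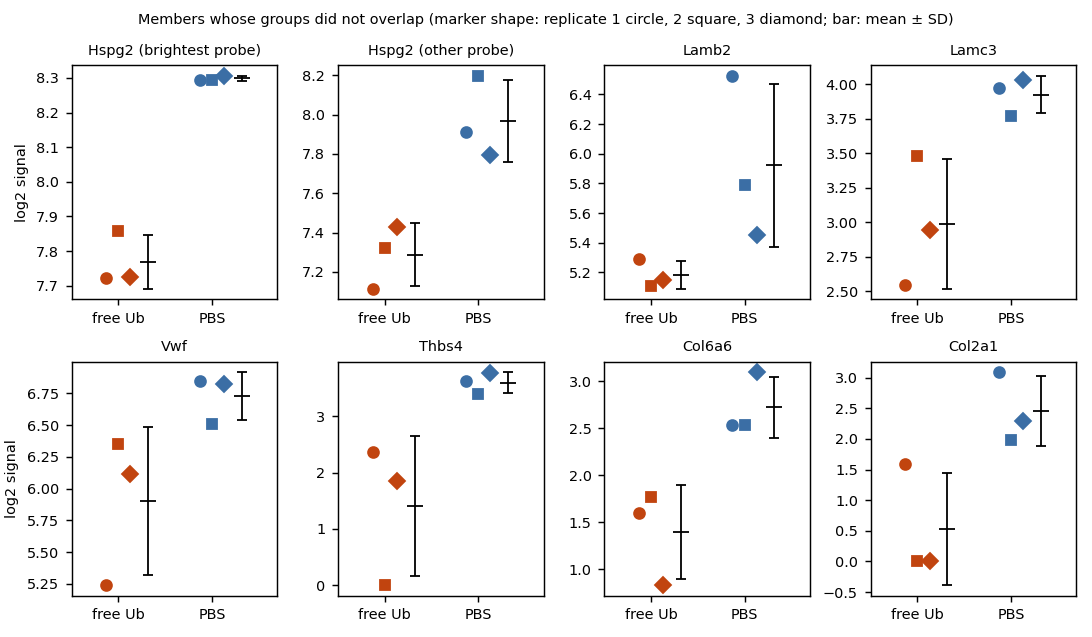
Log2 signal of each sample (vertical axes, a separate scale per panel) in the free Ub and PBS groups for the 7 genes whose groups did not overlap, with both probes of Hspg2, and the mean ± SD of 3 samples as a bar. All free Ub points lie under all PBS points, and points at 0 in the panels of Thbs4 and Col2a1 are values at the floor.

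Collagen IV, the network-forming collagen found in every basement membrane, was lower in mean signal for its ubiquitous chains without separating the groups. Col4a1 had 8.51, 8.68 and 8.88 with free Ub and 9.13, 8.69 and 9.12 with PBS, a difference of -0.29 (-0.74 to 0.16). Col4a2 had 8.02, 8.05 and 7.96 with free Ub and 8.21, 7.94 and 8.72 with PBS, a difference of -0.28 (-0.86 to 0.30). In both genes, whose starts lie 21 bases apart on opposite strands in the RefSeq windows, PBS 1 and PBS 3 lay above every free Ub sample and PBS 2 did not. Of the chains with a restricted distribution, Col4a5 differed by -0.50 (-1.94 to 0.93) at its brightest probe. A dim Col4a5 probe, named after its values were seen, went the other way, with 2.02, 1.36 and 3.26 with free Ub, above the floor, the floor and 1.33 with PBS, a difference of 1.77 (limma, unadjusted p = 0.0502, adjusted p = 0.872). Col4a6, the neighbour of Col4a5, differed by 0.02 (-0.84 to 0.88). Col4a3 and Col4a4, known chiefly from kidney, lung and other specialised membranes, were at the floor on 4 and 2 arrays.

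Col18a1 and Col15a1 encode collagens of the basement membrane zone that release antiangiogenic fragments. Col18a1 had 8.67, 8.39 and 8.24 with free Ub and 8.86, 8.65 and 9.03 with PBS, a difference of -0.42 (-0.84 to 0.01; limma, unadjusted p = 0.0531, adjusted p = 0.872). Only free Ub 1 lay above a PBS sample, PBS 2. Another Col18a1 probe, dimmer but above the floor on all arrays, had 4.12, 4.08 and 4.06 with free Ub and 3.11, 3.52 and 4.20 with PBS, a difference of 0.47 (-0.32 to 1.27). Col15a1 differed by -0.41 (-1.07 to 0.24).

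Laminins are heterotrimers of an alpha, a beta and a gamma chain that polymerise into the sheet facing the cells. Lamc3, a gamma chain of restricted distribution, had 2.54, 3.48 and 2.94 with free Ub, against 3.97, 3.77 and 4.03 with PBS. Its groups did not overlap, and the difference was -0.94 ± 0.27 (SE), 1.91-fold lower (limma, unadjusted p = 0.0198, adjusted p = 0.763). These are dim values: with all values under 4 raised to 4 the difference was -0.01, and averaging its probes gave -0.51 (limma, unadjusted p = 0.125). Without PBS 1, PBS 3 or free Ub 3 its unadjusted p was between 0.0610 and 0.0637. Lamb2, a beta chain of mature vessel, muscle and nerve membranes, had 5.29, 5.11 and 5.15 with free Ub, against 6.52, 5.79 and 5.45 with PBS. The free Ub values were close together and under all PBS values, of which PBS 1 was the highest, and the difference was -0.74 ± 0.30 (SE; limma, unadjusted p = 0.0636, adjusted p = 0.872). It was -0.44 without PBS 1 (limma, unadjusted p = 0.0396, adjusted p = 0.857), and also -0.44 with array weights.

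The remaining laminin chains overlapped between the groups. Lamc1, the gamma chain of most laminins, had 6.71, 6.95 and 6.93 with free Ub and 7.45, 7.00 and 6.89 with PBS, a difference of -0.25, whereas its other probe had a difference of 0.06. Lamb3, a beta chain of the epithelial laminin under hemidesmosomes, was the 1 gene with a mean above 6 that was higher, by 0.19 (-0.38 to 0.76). Lama5, the alpha chain of intestinal epithelial basement membrane, differed by -0.04 (-0.62 to 0.54), Lama4, of vessel walls, by -0.50 (-1.53 to 0.53), and Lama1 by -0.26 (-1.56 to 1.04). Lama2 and Lamb1, an alpha chain of muscle and a widespread beta chain, were each at the floor on 1 array, with intervals of -4.38 to 1.79 and -2.62 to 1.95. Nid1, the nidogen that links laminin to collagen IV, had 5.69, 6.12 and 6.07 with free Ub and 4.58, 5.92 and 5.97 with PBS, a difference of 0.47 in which PBS 1 stood apart, and its other probe had -0.05.

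**Figure D3:**
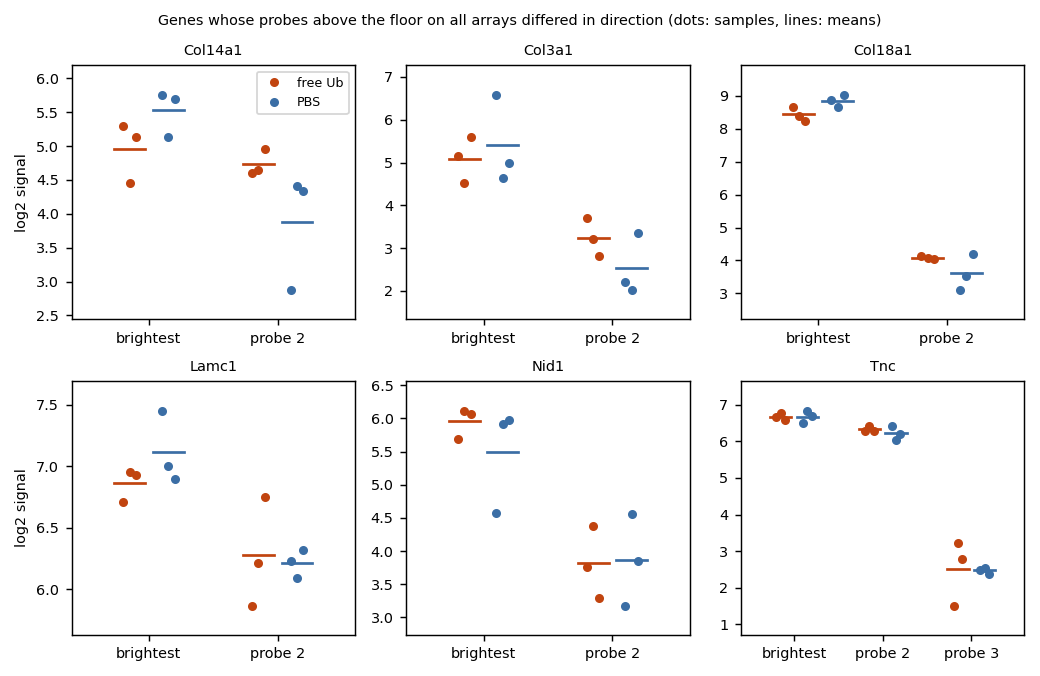
Log2 signal of each sample at every probe above the floor on all arrays, for the 6 genes whose probes differed in direction, with free Ub left of PBS at each probe and lines for group means. At the brightest probe of Col14a1 the free Ub mean is lower by 0.57, and at its probe 2 it is higher by 0.86 with no overlap.

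The glycoproteins and proteoglycans had a median difference of -0.17, with 9 of 11 lower (background 49.7%). Of the 11, 1 was lower at an unadjusted p under 0.05 (background 3.4%). Thbs4, a thrombospondin of muscle, tendon and nerve matrix, had 2.36 in free Ub 1, the floor in free Ub 2 and 1.86 in free Ub 3, against 3.62, 3.40 and 3.77 in the PBS samples. All free Ub values lay under all PBS values, with 1 of them at the floor. The difference was -2.19 ± 0.68 (SE; limma, unadjusted p = 0.0272, adjusted p = 0.849), a size that depends on where the floor lies, and without free Ub 2 it was -1.49. Vwf, the platelet-binding glycoprotein stored in endothelial cells, had 5.24, 6.35 and 6.11 with free Ub, against 6.85, 6.51 and 6.82 with PBS. The groups did not overlap, free Ub 1 was the lowest sample, and the difference was -0.82 ± 0.33 (SE; limma, unadjusted p = 0.0619, adjusted p = 0.872), or -0.49 without free Ub 1.

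Of 8 endothelial markers, all above the floor on every array, 6 were lower and 2 higher with free Ub, with a median difference of -0.23. Measured from each gene's mean, their median lay between -0.35 and -0.06 in the free Ub samples, under the 0.02 to 0.24 in the PBS samples. Eng and Robo4, 2 of the 8, were lower at an unadjusted p under 0.05 (background 3.4%). Eng, a co-receptor for TGF-beta, was at 5.39 ± 0.25 with free Ub and 5.95 ± 0.10 with PBS (SD, n = 3 each), while the junction proteins Pecam1 and Cdh5 differed by -0.12 and 0.04. Tek, the angiopoietin receptor, had 4.84, 4.73 and 5.66 with free Ub and 4.56, 4.67 and 4.9998 with PBS, a difference of 0.34 (-0.47 to 1.14). The part of vessel cells in the differences of Vwf and Hspg2 was not tested.

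The genes with the brightest probes of this class, other than Vwf, showed no separation. Dcn, decorin, a small proteoglycan that coats collagen fibrils, had 9.87, 10.2 and 10.8 with free Ub and 10.6, 9.92 and 10.5 with PBS, a difference of -0.08 (-0.96 to 0.80). Its relative Lum, lumican, differed by 0.25 (-0.91 to 1.41). Tnc, tenascin-C, a matrix protein of remodelling tissue, had 6.66, 6.77 and 6.60 with free Ub and 6.52, 6.84 and 6.68 with PBS, a difference of -0.00 with an interval of -0.28 to 0.27, narrower than for any other of the 40 genes but Hspg2. A second bright Tnc probe had 0.12 (-0.17 to 0.41), and a dim one had 0.63, 0.63 and the floor with free Ub against 2.08, 3.32 and 3.22 with PBS, a difference of -2.45 (limma, unadjusted p = 0.00294, adjusted p = 0.44). That dim Tnc probe was named after its values were seen. With the probes of a gene averaged, the dim probe included, Tnc differed by -0.76 (limma, unadjusted p = 0.0151, adjusted p = 0.71).

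Fn1, fibronectin, the adhesive glycoprotein on which fibrils assemble, had a difference of -0.23 (-1.17 to 0.70), and Tnxb, tenascin-X, of -0.16 (-1.04 to 0.71). The other thrombospondins ranged from -0.25 for Thbs2, through -0.17 for Thbs1, which was at the floor on 2 arrays, to 0.82 for Thbs3, where PBS 3 alone was near 0. Vtn, the plasma adhesion protein vitronectin, varied widely within groups. It had 6.65, 2.42 and 2.25 with free Ub and 4.66, 3.81 and 6.13 with PBS, a difference of -1.09 (-5.05 to 2.86). Of 6 listed pancreas genes 4 were measured, all above the floor on every array. Ctrb1, the pancreatic protease precursor chymotrypsinogen, had 13.97, 12.1 and 6.68 with free Ub and 11.9, 9.91 and 14.1 with PBS. Free Ub 1 and PBS 3, the highest samples for Vtn, were also the highest for Ctrb1, and free Ub 3 was the lowest for both. Free Ub 2 differed from this, with less Vtn but more Ctrb1 signal than PBS 1 and PBS 2. The part of pancreatic tissue in the Vtn values was not tested.

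**Figure D4:**
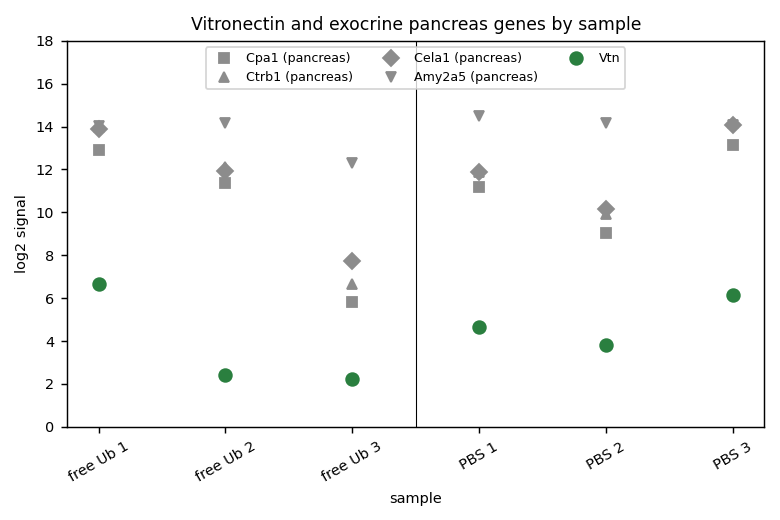
Log2 signal of Vtn and of 4 exocrine pancreas genes (vertical axis) in each sample, with the free Ub samples left of the PBS samples. Vtn reaches 6.65 in free Ub 1 and 6.13 in PBS 3, the samples in which Cpa1 reaches 12.9 and 13.1, and differences between genes in height are differences between probes.

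The sample pattern was shared by many of the 32 genes above the floor on all 6 arrays. PBS 1 was the highest sample for 13 of them and PBS 3 for 11, but PBS 2 for 1. Free Ub 1 was the lowest for 11, free Ub 3 for 7, PBS 2 for 6 and free Ub 2 for 4. Measured from each gene's mean, the median over these genes was -0.27, -0.07 and -0.09 in free Ub 1, free Ub 2 and free Ub 3, against 0.37, -0.07 and 0.28 in PBS 1, PBS 2 and PBS 3. Over these 32 genes PBS 2 thus lay with the free Ub samples, and the medians of the 2 groups overlapped. By role they overlapped for interstitial collagens and for glycoproteins and proteoglycans, with PBS 2 at -0.26 and -0.34. For basement membrane genes they did not, at -0.26 to -0.04 in the free Ub samples and 0.06 to 0.29 in the PBS samples. Over all named genes above the floor the same medians lay between -0.02 and 0.05. Without PBS 2 the count lower at an unadjusted p under 0.05 was 9 in place of 5 (background 3.62%), adding Col6a1, Col6a2, Col5a1, Col4a1 and Col18a1 while Thbs4 no longer passed. It was 3 without PBS 1 (background 3.03%), PBS 3 (4.43%) or free Ub 3 (3.2%).

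**Figure D5:**
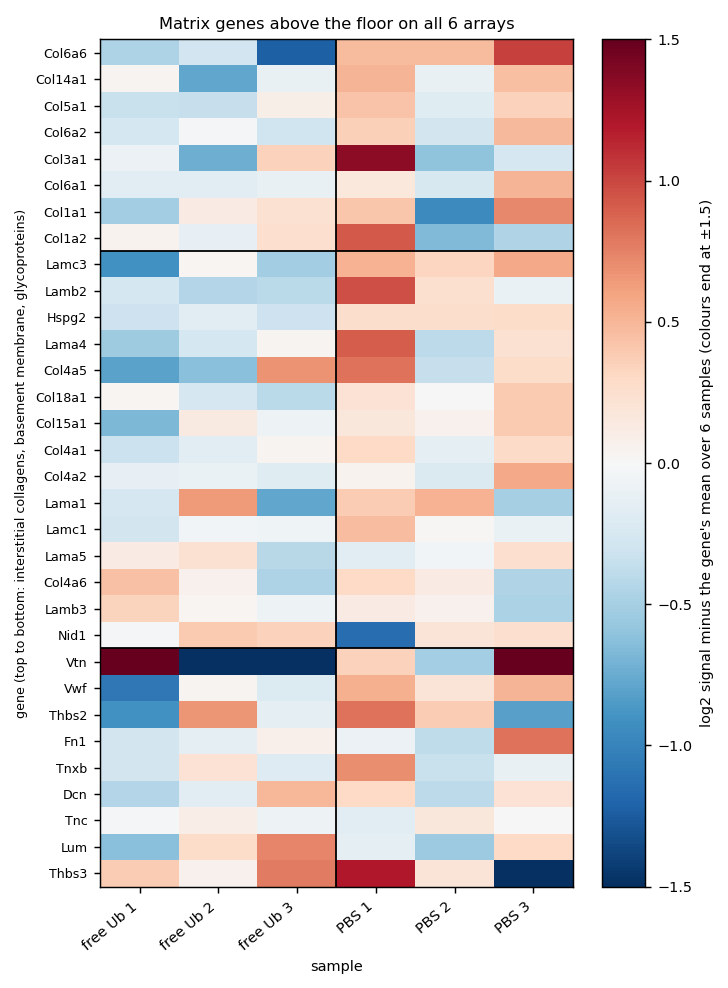
Log2 signal minus the gene's mean over 6 samples for the 32 matrix genes above the floor on all arrays (rows, by role) in the free Ub samples and the PBS samples (columns). PBS 1 and PBS 3 are the highest sample for 24 of the 32 genes, and PBS 2 for 1.

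Cell types that make matrix did not share one direction. Of 10 fibroblast markers 8 were lower (median -0.18), of which Col1a1, Col3a1 and Dcn, with Lum, which was higher, are also matrix genes of the main list. Smooth muscle markers were higher for 7 of 8 (median 0.23), and enterocyte markers were divided, 4 higher and 4 lower (median 0.00). All but 2 markers of these 3 lists were above the floor on every array, and measured from each gene's mean the sample medians of the groups overlapped for fibroblasts (-0.45 to 0.34 with free Ub and -0.44 to 0.40 with PBS) and for smooth muscle (-0.05 to 0.29 and -0.57 to 0.66). Their part in the matrix values was not tested. Pancreas genes had a median of -0.96, and other marker lists lay between -0.34 for platelets and 0.07 for mesothelium. Over all marker lists 1 gene, the platelet receptor gene Gp9, was higher and 4, Eng, Robo4, Sox10 and Acta1, were lower at an unadjusted p under 0.05. These came from lists of 5 platelet, 8 endothelial, 6 glia and neuron and 5 skeletal muscle genes measured. Over all named genes 2.33% were higher and 3.4% lower at that p.

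The other genes of matrix biology were set beside the structural genes by the same fit. Of 29 further structural genes measured, 17 were lower and 12 higher (median -0.03, or -0.13 for the 20 above the floor on every array), and 1 had an unadjusted p under 0.05. This was Col17a1, the hemidesmosome collagen, at 1.76 ± 0.52 with free Ub and 2.89 ± 0.45 with PBS (SD, n = 3 each; limma, unadjusted p = 0.0338, adjusted p = 0.872). Enzymes and chaperones that modify, fold and crosslink collagen were lower for 11, higher for 7 and at the floor for 2 of 20 (median -0.02, or -0.10 for the 15 above the floor). Plod3, a lysyl hydroxylase of collagen, had 8.63, 8.71 and 8.70 with free Ub, under the 9.34, 8.87 and 9.06 with PBS, a difference of -0.41 (limma, unadjusted p = 0.0309, adjusted p = 0.872).

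Matrix proteases and their inhibitors were lower for 15 of 19 (median -0.19, or -0.20 for the 13 above the floor). Plau, the urokinase that activates plasminogen, had 4.73, 4.80 and 5.02 with free Ub, again under all of the 5.14, 5.35 and 5.27 with PBS, a difference of -0.40 (limma, unadjusted p = 0.0143, adjusted p = 0.709). Integrins and other matrix receptors were lower for 15 and higher for 9 of 24 (median -0.05, or -0.08 for the 18 above the floor), and 0 had an unadjusted p under 0.05 in limma. The sign of their median was not stable, at 0.12 with array weights, 0.08 with probes averaged and 0.02 without PBS 1. Of 19 genes of TGF-beta and profibrotic signalling 10 were lower and 9 higher (median -0.04, or -0.15 for the 15 above the floor). Smad3, which carries the TGF-beta signal to the nucleus, had 8.46, 8.68 and 8.73 with free Ub, under the 8.99, 8.96 and 8.77 with PBS, a difference of -0.28 (limma, unadjusted p = 0.0475, adjusted p = 0.872). Tgfb3, a TGF-beta ligand, went the other way at a dim probe, with 2.26, 3.45 and 3.13 with free Ub and the floor, 2.20 and 1.18 with PBS, a difference of 1.82 (limma, unadjusted p = 0.0493, adjusted p = 0.872). In these 5 lists 0 genes passed an adjusted p under 0.05 in limma, while 4 of the 111 genes (3.6%) had a lower and 1 (0.901%) a higher signal at an unadjusted p under 0.05, where 3.4% and 2.33% of all named genes did.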

How the data were processed

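The authors processed raw Illumina signals in GenomeStudio with cubic-spline normalization, and the deposited table holds 1 value per probe and array, read here as log2, since no source states the log base. How background was handled and how the floor near 0 arose are not given in the sources used here, and the table has no detection p-values. Array values carry no read depth, and the number of arrays and the brightness of a probe limit the precision. Of 45281 probes, 34885 had 1 gene symbol in the platform annotation, 18 had several and 10378 were not listed with a gene. Older symbols were updated through RefSeq. Samples were grouped by their labels, 3 free Ub and 3 PBS.

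Each probe was tested with limma 3.58.1 in R 4.3.3 (lmFit, eBayes and a two-sided moderated test without covariates, adjusted by Benjamini-Hochberg over all probes), and the script was checked on simulated data. Genes past the study's threshold, more than 2-fold with a p under 0.05 before adjustment, were also counted. Values per sample are given for genes with an unadjusted p under 0.05, genes above the floor whose groups did not overlap, the 3 brightest of each role, genes whose probes differed in direction, and companion genes with an unadjusted p under 0.05. Values of Col1a2, Vtn and marker genes, and 1 dim probe each of Tnc and Col4a5, were added after they were seen. The members, roles and companion and marker lists were chosen with earlier results of these data known. Alternatives covered normalization, floors, filters, the value per gene, the test, a block on the replicate number and leaving out each sample.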

Additional observations from a re-analysis of the deposited data

How the results depend on the processing

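The count of matrix genes with an adjusted p under 0.05 was 0 in every alternative except without free Ub 2, where Hspg2 passed (range 0 to 1 over the samples left out). The count lower at an unadjusted p under 0.05 was 5 (background 3.4%) and lay between 3 and 9 when 1 sample was left out. It was 3 without PBS 1 (background 3.03%), PBS 3 (4.43%) or free Ub 3 (3.2%). It was 7 without free Ub 2 (3.24%), 8 without free Ub 1 (4.24%) and 9 without PBS 2 (3.62%). The count higher was 0 (background 2.33%), or 1 (Col1a2) without PBS 1 (background 2.76%), so 0 to 1 over the samples left out. Of the 5 genes, Hspg2 alone passed an unadjusted p of 0.05 in every alternative. Lamc3 lost it with values under 4 raised to 4, with the probes of a gene averaged, under the replicate block, in the paired t-test and without PBS 1, PBS 3 or free Ub 3. Col6a6 lost it under the block and in the paired t-test, Thbs4 in the paired t-test and without any 1 PBS sample, and Col2a1 without PBS 1, PBS 3, free Ub 2 or free Ub 3. Dim genes were also not fitted: Col2a1 and Thbs4 where only probes above the floor on all arrays entered, Col2a1 and Col6a6 with the filter at the median of probe means, and Col2a1, Col6a6 and Thbs4 with values under 4 raised to 4.

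Deviations from the group mean correlated at -0.003, 0.020 and -0.091 between same-numbered free Ub and PBS samples, and at -0.093 to 0.092 between other pairs. Taken from means of 3 samples, these values cannot exclude a pairing. The labels tie the numbers to nothing, and the numbers are used here to name samples only. With the replicate number as a block in limma 4 genes were lower at an unadjusted p under 0.05 (background 3.58%), Hspg2, Col14a1, Thbs4 and Col2a1. With the methods' paired t-test 3 were lower at that p (background 2.3%), Hspg2, Col14a1 and Col2a1, of which Col2a1 also differed by more than 2-fold. No gene passed adjustment in either. In limma the block removed 2 calls, Col6a6 and Lamc3, and added 1, Col14a1 (unadjusted p = 0.00524).

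The median difference of all 40 genes lay between -0.48 and -0.20 over the samples left out, that of interstitial collagens between -0.65 and -0.27, and that of basement membrane genes between -0.44 and -0.20. For glycoproteins and proteoglycans it lay between -0.32 and 0.05, with 0.05 without PBS 1 and 0.00 without free Ub 1, and it was -0.03 with array weights. The medians of enzymes and chaperones and of TGF-beta genes lay between -0.21 and 0.00 over the samples left out. Some single genes turned in direction. With probes averaged, Col18a1 was at 0.48, Dcn at 0.046, Col14a1 at 0.15 and Col3a1 at 0.20, while Tnc was at -0.76 and Col6a1 at -0.51, both newly past an unadjusted p of 0.05 in limma (0.0151 and 0.0260). The Col6a1 average takes in a probe at the floor on 5 arrays, above it in PBS 2 only, with a difference of -0.88. The brighter Col6a1 probes differed by -0.29 and -0.37. With array weights Col3a1 was at 0.024. Leaving out 1 sample gave -0.35 to 0.12 for Dcn, -0.70 to 0.27 for Col3a1 and -0.086 to 0.078 for Tnc. The cause of these turns was not tested. Over all genes chosen by the stated rule, 284 alternative values kept direction and side of an unadjusted p of 0.05, 22 newly passed it, 17 no longer did and 12 turned. With values under 4 raised to 4, 29 of the 40 genes kept a value, and with either filter on dim probes 32 did. With 3 arrays per group and no detection calls, differences of dim genes are the least certain here.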
